A study of Rattus norvegicus with 5 samples.

Results

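The genes described here are 50 rat genes of the ATF4 amino acid and one-carbon stress program, given as a list and found on the arrays by pairing each probe's RefSeq accession with its gene symbol. A probe was paired with 46 of the 50, out of 15154 genes measured in all, and Shmt1, Mthfd1l, Slc7a1 and Gars1 had none and are not analysed here. The genes were chosen by their known roles and with their log2 ratios of 3D over 2D on these arrays in view, so those values are given as a description, without a test of the list. RNA came from FRT cells, an epithelial line from the thyroid of Fischer rats, on day 5 of culture either as 3D follicles, grown from single cells embedded in the basement membrane extract Matrigel, or as 2D monolayers. The methods describe a medium with serum and added hormones for this line, and both groups are total RNA. Each of 4 two-colour arrays set a separate 3D replicate, in Cy5, against pooled RNA of the 4 2D replicates, in Cy3. The dyes were exchanged on another array, with the 2D pool in Cy5 and pooled 3D RNA in Cy3. The spread over the 4 replicate arrays is therefore that of the 3D cultures, since the 2D cultures entered as 1 pool, and all 5 arrays lay on 1 slide. All values below are log2 ratios of 3D over 2D, so a negative value is a lower transcript level in follicles, and the sign of the dye-swapped array was turned. In bulk RNA, fewer cells of a kind and less RNA per cell cannot be told apart.

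ATF4 is a transcription factor whose protein is made in greater amount when the initiation factor eIF2 is phosphorylated by one of several stress kinases, among them GCN2, which senses uncharged transfer RNA, and PERK, which senses the load of unfolded protein in the endoplasmic reticulum. With C/EBP partners it binds composite C/EBP-ATF response elements and raises genes for making, importing and charging amino acids, the serine branch that feeds folate-bound one-carbon units to nucleotide synthesis, and a set of stress signals that includes CHOP, ATF3 and TRIB3. In the thyroid the endoplasmic reticulum carries the load of thyroglobulin, which is made there in bulk by follicular cells.

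Marker genes were read for the labelled cell type. Over all genes 9015 of 15154 were well above background, so counts of markers above background do not by themselves identify the cells. The paper states that this line no longer has most markers of thyroid differentiation, Pax8 being kept. Of 16 thyroid epithelial markers, 12 were well above background and Tg, Nkx2-1, Slc5a5 and Tshr were not; 5 rose in follicles and the other 11 did not pass. Markers of fibroblasts were well above background for 4 of 8 genes, of endothelium for 1 of 6 and of leukocytes for 2 of 8. Among these, the fibroblast marker Pdgfra was higher at 0.55 (adjusted p = 6.79e-06, limma) and the leukocyte marker Lyz2 was lower at -0.20 (adjusted p = 0.0093), a call lost without any one replicate (-0.21 to -0.17), and their part in the results below was not tested. Pairs of replicate arrays correlated at r = 0.871 to 0.946 over all genes and the dye-swapped array correlated with them at 0.734 to 0.765. Across the transcriptome 3918 of 15154 genes passed at a false discovery rate of 0.01 by limma, 2177 higher and 1741 lower in 3D cultures.

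Of the 46 measured genes of the program, 38 were lower in 3D follicles and 1 was higher. The background for these counts is 11.5% of all 15154 genes lower and 14.4% higher, and since this contrast was in view when the list was made nothing is read from the difference. The 7 genes that did not pass were Cebpb, Ddit4, Cth, Gpt2, Stc2, Fgf21 and Slc7a3, of which Stc2, Fgf21 and Slc7a3 were not well above background in either culture and had fitted values of 0.02, 0.05 and 0.05. A total of 43 of the 46 were well above background, and with dim genes removed 38 of these were lower, against 19.4% of the 9015 genes left. The median log2 fold change over the 46 genes was -0.63, beside 0.00 over all genes. Of the 46, 38 were negative on each of the 5 arrays, beside 2562 of all 15154 genes, and nothing is read from that difference either. A fall of at least 2-fold was found in 11 of them, against 0.983% of all genes. These were the stress signals Trib3, Ppp1r15a, Atf3, Ddit3, Chac1 and Sesn2, the enzymes Mthfd2 and Pycr1, the carriers Slc7a11 and Slc1a5 and the synthetase Yars1. The group depended on the processing. Across alternative settings the lowest fitted values were -1.27 for Slc7a5, -1.11 for Psph, -1.06 for Nars1, -1.05 for Atf4 and -1.03 for both Phgdh and Asns. Within the 11, the values nearest 0 were -0.57 for Yars1, -0.84 for Slc1a5, -0.90 for Slc7a11 and -0.92 for Sesn2, short of 2-fold.

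**Figure D1:**
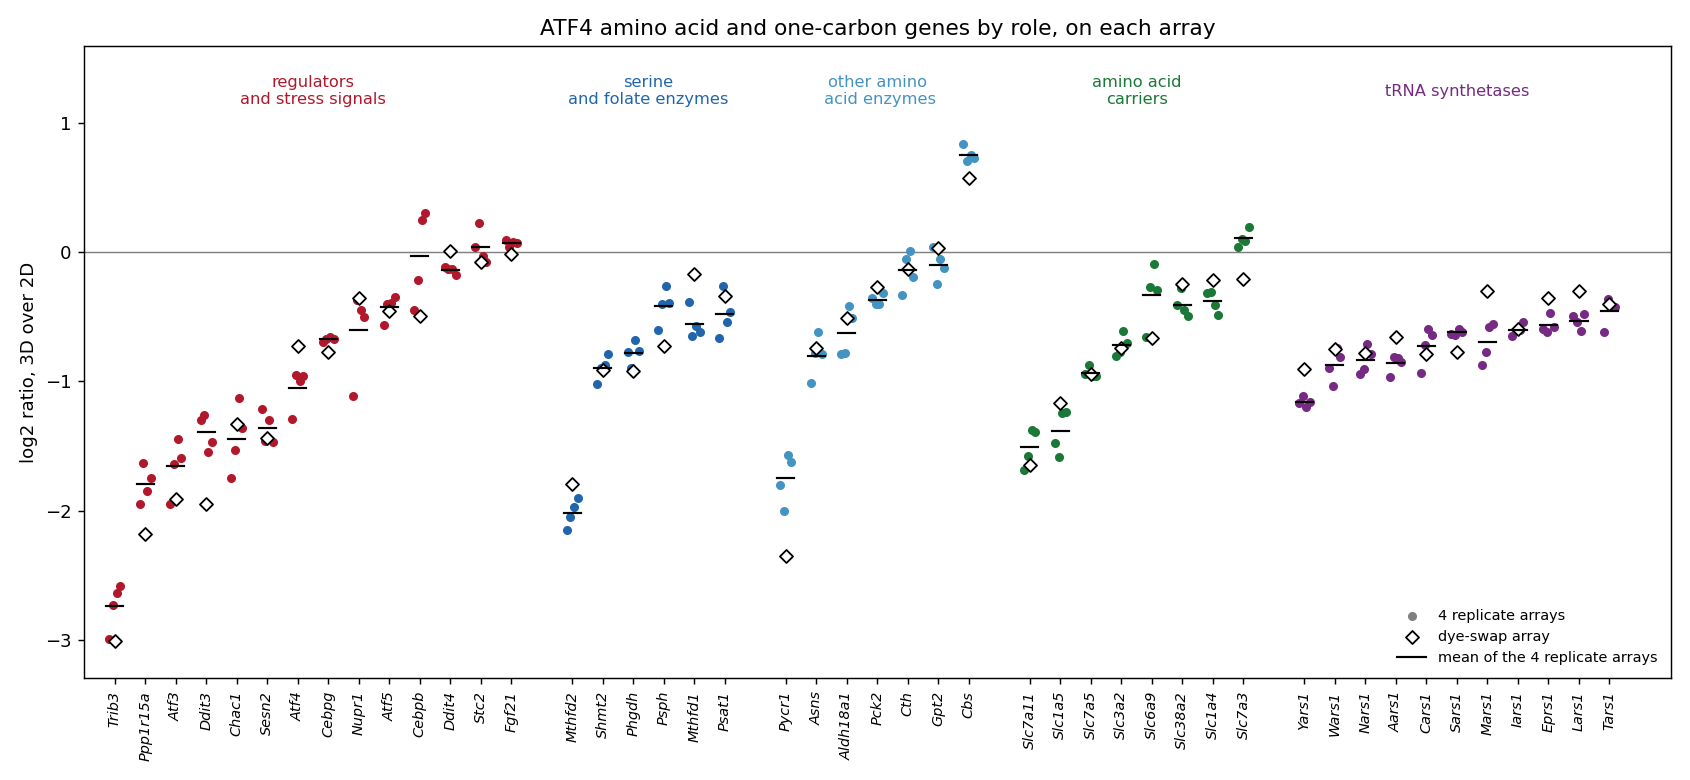
Log2 ratio of 3D over 2D for each measured gene of the ATF4 program, ordered by role, with 1 small point for each of the 4 replicate arrays, a diamond for the dye-swapped array and a bar at the mean of the 4. Trib3 lies lowest, with arrays from -3.01 to -2.59, every array of the 11 synthetases lies below 0, and Cbs lies above 0 on all 5.

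The regulators and stress signals included the lowest value of the program and had the lowest median. Of 14 genes, 10 were lower, 6 of them by at least 2-fold, with a median of -0.84; when arrays were centred on their median in place of loess, Atf5, Cebpb and Ddit4 turned positive and Stc2 and Fgf21 negative. Trib3, a pseudokinase that is induced by ATF4 and restrains its activity, lies at chr3:161269939-161275533 on the GRCr8 assembly. It measured -2.99, -2.73, -2.64 and -2.59 on replicate arrays 1 to 4 and -3.01 on the dye-swapped array. Every array placed it far below 0, the fitted change was -2.79 (standard error 0.07, 6.93-fold lower), and it had the second lowest fitted value of 15154 genes. Chac1, which degrades glutathione, gave -1.75, -1.53, -1.13 and -1.36 on the replicates and -1.33 on the swap. Its fitted value was -1.42, and replicate 1 was the lowest of the arrays.

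The 250 bases before the annotated start of Trib3 and of Chac1 are shown because both genes fell by at least 2-fold and each window holds the core of a C/EBP-ATF element, in capitals, here TGATGNAA read on the opposite strand. The sequences are those of RefSeq on GRCr8, 5′ to 3′ on the gene's strand, at chr3:161275534-161275783 on the minus strand and chr3:126795881-126796130 on the plus strand.
Trib3: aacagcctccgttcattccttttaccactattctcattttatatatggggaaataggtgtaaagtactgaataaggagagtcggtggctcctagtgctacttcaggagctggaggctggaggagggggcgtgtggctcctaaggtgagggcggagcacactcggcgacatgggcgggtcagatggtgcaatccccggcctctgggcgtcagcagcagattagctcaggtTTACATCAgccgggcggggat
Chac1: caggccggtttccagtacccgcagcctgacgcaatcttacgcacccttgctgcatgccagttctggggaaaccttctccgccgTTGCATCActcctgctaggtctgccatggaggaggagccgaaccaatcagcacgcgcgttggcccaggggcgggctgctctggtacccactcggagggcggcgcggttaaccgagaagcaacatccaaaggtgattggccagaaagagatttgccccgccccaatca

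Ppp1r15a encodes GADD34, the stress-induced subunit that directs a phosphatase to eIF2 and so ends the response. Its log2 ratios were -1.95, -1.63, -1.85 and -1.75 on the 4 replicates and -2.18 on the swap, for a fitted change of -1.87 (standard error 0.07). Atf3, a stress-induced factor of the ATF family, gave -1.95, -1.64, -1.45 and -1.59 on the replicates and -1.91 on the swap, with a fitted value of -1.71 (standard error 0.07). Both genes were beyond a 2-fold fall on all 5 arrays. Ddit3, which encodes CHOP, a factor of terminal stress responses, measured -1.30, -1.26, -1.55 and -1.47 on the replicates. Its swapped array was lower still, at -1.95, and the fit gave -1.50 (standard error 0.09). Sesn2, a leucine-binding inhibitor of mTORC1 signalling, measured -1.21, -1.46, -1.30 and -1.47 on the replicates and -1.44 on the swap, for a fit of -1.38. All 5 of its arrays were also beyond a 2-fold fall.

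Atf4 itself was lower, with -1.29, -0.950, -0.998 and -0.959 on the replicates and -0.72 on the swap. The fit was -0.98 (standard error 0.07), just short of 2-fold, and replicate 1 stood below the other arrays. These are transcript levels, and the ATF4 protein, which is set mainly by translation, was not measured. Among its partners, Cebpg, the C/EBP factor that pairs with ATF4 at amino acid genes, gave -0.69, -0.67, -0.66 and -0.67 on the replicates and -0.77 on the swap. It had nearly the same value in every 3D replicate, with a fit of -0.69. Atf5, a factor translated in the same manner as ATF4, gave -0.56, -0.40, -0.39 and -0.35 on the replicates and -0.45 on the swap, with a fit of -0.43. Cebpb, a C/EBP factor of inflammation and differentiation, gave -0.45, -0.21, 0.25 and 0.31 on the replicates and -0.49 on the swap. Its signs were negative on replicates 1 and 2 and the swap and positive on replicates 3 and 4, and it did not pass. Nupr1, a small stress-induced chromatin protein, was lower at -0.55 (standard error 0.10), with -1.11, -0.37, -0.44 and -0.50 on the replicates and -0.35 on the swap. That call was lost with an offset of 0, with Agilent's processed signals and with a dye term. Ddit4, an inhibitor of mTORC1, stood at -0.11 and did not pass. Single arrays of Ddit4, Nupr1, Stc2 and Fgf21 ran from -1.11 for Nupr1 to 0.23 for Stc2.

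All 6 serine and folate enzymes measured were lower, with a median of -0.64, although Psat1 and Mthfd1 turned positive with median centring. Mthfd2, the mitochondrial folate dehydrogenase that carries one-carbon units toward formate, was the lowest, with -2.15, -2.05, -1.97 and -1.90 on the replicates and -1.79 on the swap. Its fit was -1.97 (standard error 0.06, 3.93-fold lower), and its 3 probes gave -1.97, -1.66 and -1.25. All 5 arrays and all 3 probes of Mthfd2 thus lay beyond a 2-fold fall. Shmt2, the mitochondrial enzyme that splits serine into glycine and a one-carbon unit, fell by 0.90. The 3 enzymes that make serine from a glycolytic intermediate followed, with Phgdh at -0.81, Psph at -0.48 and Psat1 at -0.45. Single arrays of the 5 enzymes other than Mthfd2 ran from -1.02 for Shmt2 to -0.17 for Mthfd1. Mthfd1, the cytosolic counterpart, was at -0.47, and its call was lost with an offset of 0. The value of Psph moved to -0.86 with an offset of 0 and to -1.11 with Agilent's processed signals.

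The other enzymes of amino acid synthesis were mixed. Asns, Aldh18a1, Pycr1 and Pck2 were lower, Cbs was higher and Cth and Gpt2 did not pass, for a median of -0.35 over 7 genes, and Pck2 and Cth turned positive with median centring. Pycr1, which makes the last step to proline in mitochondria, was the lowest at -1.87 (standard error 0.10), with -1.80, -2.01, -1.57 and -1.62 on the replicates and -2.35 on the swap. Its swapped array was the lowest and all 5 were beyond a 2-fold fall. Aldh18a1, which precedes it in proline synthesis, was at -0.60, Pck2 at -0.35, and Asns, asparagine synthetase and the textbook target of ATF4, at -0.79. Cbs, the first enzyme of transsulfuration, which draws homocysteine toward cysteine, measured 0.84, 0.70, 0.75 and 0.73 on the replicates and 0.58 on the swap, each above 0. Its fitted value of 0.72 rose to 1.35 with an offset of 0 and to 1.73 with Agilent's processed signals. Cth, the enzyme that acts after Cbs, stood at -0.14, and Gpt2, a mitochondrial alanine aminotransferase above background in the 2D pool on 2 of 5 arrays, at -0.07. Single arrays of the 6 enzymes other than Pycr1 ran from -1.01 for Asns to 0.84 for Cbs.

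The promoter of Pycr1, at chr10:106420813-106421062 on the minus strand of GRCr8, is shown because it holds all 9 letters of the element, TGATGCAAT, of which the core is in capitals.
Pycr1: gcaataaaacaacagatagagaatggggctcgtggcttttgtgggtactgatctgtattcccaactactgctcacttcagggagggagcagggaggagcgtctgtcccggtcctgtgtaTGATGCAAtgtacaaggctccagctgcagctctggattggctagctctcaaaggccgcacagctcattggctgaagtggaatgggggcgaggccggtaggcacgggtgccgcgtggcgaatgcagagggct

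Among amino acid carriers 7 of 8 were lower, with a median of -0.56, and Slc38a2 turned positive and Slc7a3 negative with median centring. Slc7a11, the cystine and glutamate exchanger that supplies cysteine for glutathione, gave -1.69, -1.58, -1.38 and -1.39 on the replicates and -1.64 on the swap, for a fit of -1.54 (standard error 0.06). Its other probe, above background in the 2D pool on 2 arrays and in 3D cultures on 0, gave -0.25, and the mean of both probes was -0.90, short of 2-fold. Slc1a5, the main glutamine and neutral amino acid exchanger, gave -1.48, -1.59, -1.24 and -1.23 on the replicates and -1.16 on the swap, for a fit of -1.34. By their brightest probes both carriers were beyond 2-fold on all 5 arrays. The leucine carrier Slc7a5 was at -0.94, with arrays between -0.96 and -0.88, and Slc3a2, the heavy chain that it and Slc7a11 share, at -0.72. The difference of Slc7a11 from its heavy chain was -0.79 ± 0.08 (SD, n = 4 replicate arrays) and that of Slc7a5 was -0.21 ± 0.11. The sodium-coupled carriers Slc1a4 and Slc38a2 were at -0.35 and -0.37, and Slc1a4 moved to -0.55 with an offset of 0 and to -0.67 with Agilent's processed signals. The glycine carrier Slc6a9, at -0.39, lost its call without replicate 1, 2 or 4 and with either other background correction. Single arrays of the 6 carriers other than Slc7a11 and Slc1a5 ran from -0.96 for Slc7a5 to 0.20 for Slc7a3.

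The 11 tRNA synthetases were all lower, with a median of -0.65, and Lars1 and Tars1 turned positive with median centring. These are cytosolic enzymes that load amino acids onto transfer RNA. Yars1, which loads tyrosine, was the lowest, with -1.17, -1.12, -1.20 and -1.16 on the replicates and -0.91 on the swap, and the others lay between -0.84 for Wars1, the tryptophan enzyme, and -0.44 for Tars1, the threonine enzyme. Nars1, Aars1 and Cars1, which load asparagine, alanine and cysteine, were at -0.82, -0.82 and -0.74. Sars1, Mars1 and Iars1, for serine, methionine and isoleucine, were at -0.65, -0.61 and -0.60, and Eprs1 and Lars1, for glutamate with proline and for leucine, at -0.52 and -0.48. All 11 were below 0 on each array, and single arrays of the 10 other than Yars1 ran from -1.03 for Wars1 to -0.30 for Mars1. Replicate medians of this group ran from -0.87 to -0.60 and the swap gave -0.65. Within the annotation, Mars1 at chr7:65006456-65023880 overlaps Ddit3 at chr7:65001695-65006517 by 62 bases at their ends on GRCr8. Nars1 has a weaker probe that was not above background in either culture, and the mean of its probes was -0.45.

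The other synthetases had medians near 0. Since the 11 were listed with their ratios in view, nothing is read from that difference. Of 8 other cytosolic synthetases, 2 were higher, 2 were lower and 4 did not pass, with a median of 0.09. Kars1, which loads lysine, was higher at 0.32 (adjusted p = 0.00138, limma) and Qars1, which loads glutamine, at 0.22 (adjusted p = 0.00389). Vars1, the valine enzyme, was lower at -0.67 (adjusted p = 2.09e-06, limma), inside the range of the 11. Farsb, a subunit of the phenylalanine enzyme, was lower at -0.38 (adjusted p = 7.05e-05). Of 14 mitochondrial synthetases measured, 3 were higher, 2 were lower and 9 did not pass, with a median of -0.01. Cars2 was higher at 0.76 (adjusted p = 1.81e-06) and Wars2 at 0.51 (adjusted p = 0.00424), although its swapped array gave -0.09. Pars2 was lower at -0.50 (adjusted p = 1.63e-05, limma), also inside the range of the 11, and Fars2 at -0.37 (adjusted p = 7.80e-04). The calls of Kars1, Qars1 and Wars2 were lost with either other background correction, and that of Fars2 with an offset of 0. Qars1 was also lost without replicate 2 (0.24), 3 (0.22) or 4 (0.23) and with the authors' deposited log2 ratios (0.18). Wars2 was lost without any one of the 4 replicates (0.45 to 0.49) and with the mean of its probes (0.30).

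**Figure D2:**
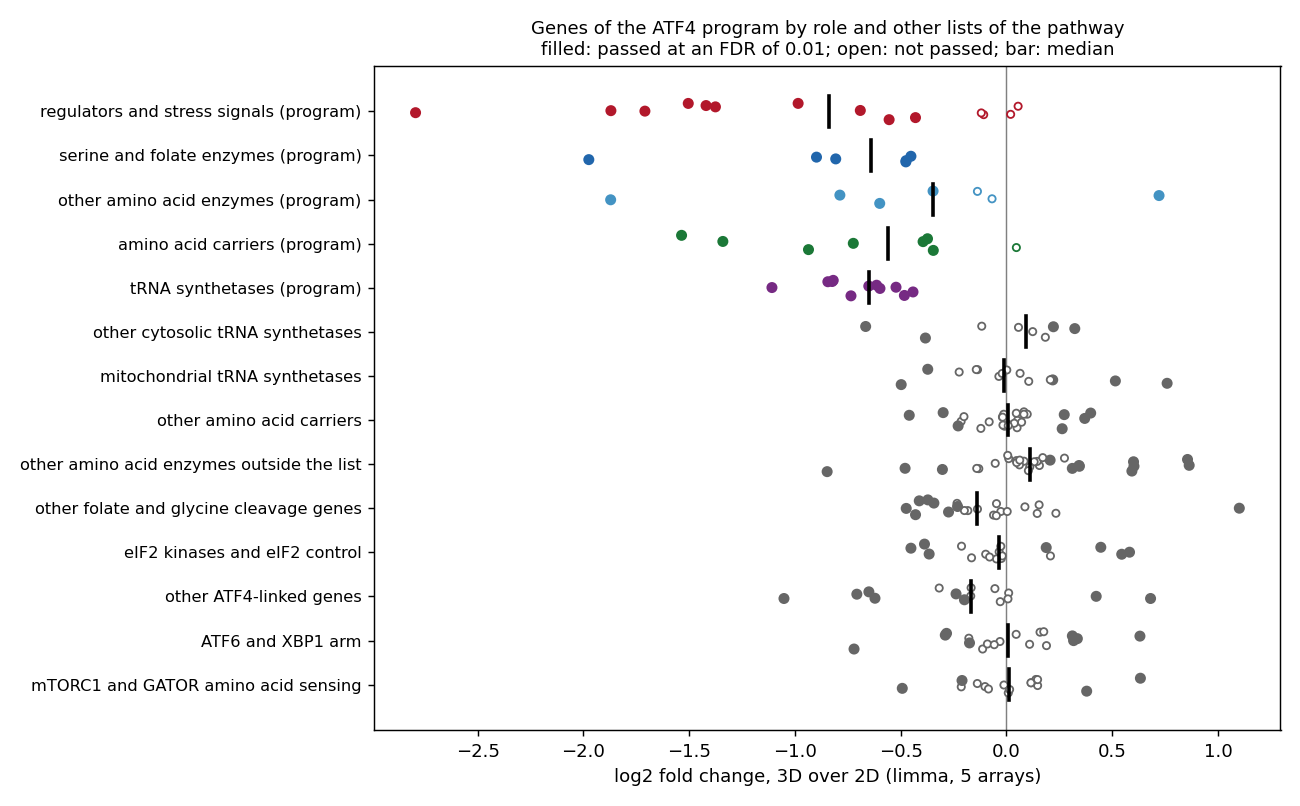
Log2 fold change of 3D over 2D for each gene of the 5 roles of the ATF4 program and of 9 other lists of the pathway, with a bar at each list's median. The medians of the program's roles lie between -0.84 and -0.35 and those of the other lists between -0.17 and 0.11.

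The other lists around the pathway were fixed as gene sets of known role, with earlier results of these data known. Other genes linked to ATF4 counted 2 higher and 6 lower of 15 measured, with a median of -0.17. Nfe2l1, a factor that raises proteasome genes, was lower at -1.05 (adjusted p = 1.03e-06, limma) and Eif4ebp1, a brake on translation, at -0.71 (adjusted p = 2.18e-04), while Klhl24 was higher at 0.68 (adjusted p = 1.28e-05) and Tsc22d3, a glucocorticoid-induced gene, at 0.42 (adjusted p = 2.61e-04). Of 17 genes of the eIF2 kinases and of eIF2 control, 4 were higher and 3 lower, with a median of -0.03. The heme-sensing kinase Eif2ak1 was higher at 0.58 (adjusted p = 1.65e-04), as was Nck1 at 0.54 (adjusted p = 1.31e-05). Eif2b3, a subunit of the exchange factor of eIF2, was lower at -0.45 (adjusted p = 0.00119), and so was Eif2s1, the subunit of eIF2 that the kinases phosphorylate, at -0.39 (adjusted p = 2.67e-04). The call of Eif2b3 was lost with either other background correction. Eif2ak4, which encodes GCN2, was higher at 0.19 (adjusted p = 0.00537, limma), a call lost with a dye term. Eif2ak3, which encodes PERK, was at 0.21 and did not pass, with -0.23 on the swap. The kinase genes' levels say nothing of their activity.

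The ATF6 and XBP1 arm, which raises chaperones of the endoplasmic reticulum, counted 4 higher and 4 lower of 18 measured, with a median of 0.01. The chaperone Hspa5, also called BiP, was lower at -0.72 (adjusted p = 8.75e-06, limma) and the lectin chaperone Calr was higher at 0.63 (adjusted p = 3.28e-04). Xbp1 was higher at 0.34 (adjusted p = 0.00501), with -0.02 on the swapped array, and Atf6 was lower at -0.29 (adjusted p = 0.00313). Genes of mTORC1 and amino acid sensing counted 2 higher and 2 lower of 16 measured, with a median of 0.01. Sesn3, a relative of Sesn2, was higher at 0.63 (adjusted p = 1.24e-05) and Tsc2, an inhibitor of mTORC1, at 0.38 (adjusted p = 4.50e-04). Lamtor1, a lysosomal anchor of that pathway, was lower at -0.49 (adjusted p = 3.63e-05), as was Depdc5, a subunit of GATOR1, at -0.21 (adjusted p = 0.00393). With either other background correction the calls of Xbp1, Atf6, Tsc2 and Depdc5 were lost, and that of Calr was lost with Agilent's processed signals. Xbp1 was also lost without any one replicate (0.29 to 0.33) and Atf6 without replicate 3 (-0.23) or 4 (-0.28). Depdc5 was lost without replicate 2 (-0.18), 3 (-0.21) or 4 (-0.22), with a dye term (-0.20) and with the mean of its probes (-0.12).

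Metabolic genes outside the program were likewise mixed. Of 21 other folate and glycine cleavage genes, 1 was higher and 7 were lower, with a median of -0.14. The folate receptor Folr1 was higher at 1.10 (adjusted p = 3.96e-07, limma), and the mitochondrial serine carrier Sfxn1 and the methyl cycle enzyme Ahcy were lower at -0.47 (adjusted p = 5.17e-05) and -0.43 (adjusted p = 8.53e-05). Of 26 other amino acid carriers, 15 of them well above background, 4 were higher and 3 lower, with a median of 0.01. The taurine carrier Slc6a6 was higher at 0.40 (adjusted p = 2.60e-04), and Slc15a4 and Slc7a6 were lower at -0.46 (adjusted p = 1.91e-04) and -0.30 (adjusted p = 2.64e-04). Slc6a14 was not well above background in the 2D pool and was at least 1.29-fold higher (adjusted p = 0.00143). Of 29 other amino acid enzymes, 9 were higher and 3 lower, with a median of 0.11. Oat, an ornithine aminotransferase, was higher at 0.86 (adjusted p = 2.91e-07) and Bckdha, which breaks down branched-chain keto acids, at 0.86 (adjusted p = 3.57e-06). Bcat1, the cytosolic branched-chain aminotransferase, was lower at -0.85 (adjusted p = 0.00113) and Got1, an aspartate aminotransferase, at -0.48 (adjusted p = 0.00221), and in both replicate 1 was the lowest array, at -1.65 and -0.95. Both calls were lost with either other background correction, and that of Got1 without replicate 2 (-0.48) and with a dye term (-0.41).

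Genes of the program were set beside relatives that do a like reaction elsewhere or under other control. The pairs were chosen with these values known and the differences, given over the 4 replicate arrays, are a description. Mthfd2 was lower than Mthfd1 by a difference of -1.47 ± 0.21 (SD, n = 4) and than its own relative Mthfd2l by -1.75 ± 0.10. Pycr1 differed from the cytosolic Pycr3 by -2.01 ± 0.16. Pycr3 had a fitted value of 0.13 and did not pass. Ppp1r15a differed from Ppp1r15b, the constitutive subunit of the same phosphatase, by -1.72 ± 0.15. Sesn2 differed from Sesn3 by -2.05 ± 0.11, with the genes on opposite sides of 0. Gpt2 differed from Gpt by -0.71 ± 0.10, where Gpt was the one that passed, at 0.59. The difference of Slc38a2 from Slc38a1 was -0.22 ± 0.04 over replicates but 0.15 with the dyes swapped, so the order of those carriers was not the same on all arrays. In 7 of 7 pairs of a cytosolic synthetase of the program and the mitochondrial enzyme for the same amino acid, the cytosolic gene was lower on all 5 arrays, with mean differences from -1.53 for tryptophan to -0.44 for threonine. The swap moved furthest from the replicate means for tryptophan, at -0.66, and for serine, at -0.11 against -0.51. The mitochondrial genes of these pairs, Wars2 and Sars2, had a dye effect at a false discovery rate of 0.01. Eprs1 loads both glutamate and proline and was counted apart. It was below the glutamate enzyme Ears2 by -0.47 ± 0.13 over replicates, but nearly level with it on the swap, at -0.00349. Against the proline enzyme Pars2 its differences ran from -0.13 to 0.01 on replicates and were 0.09 on the swap.

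**Figure D3:**
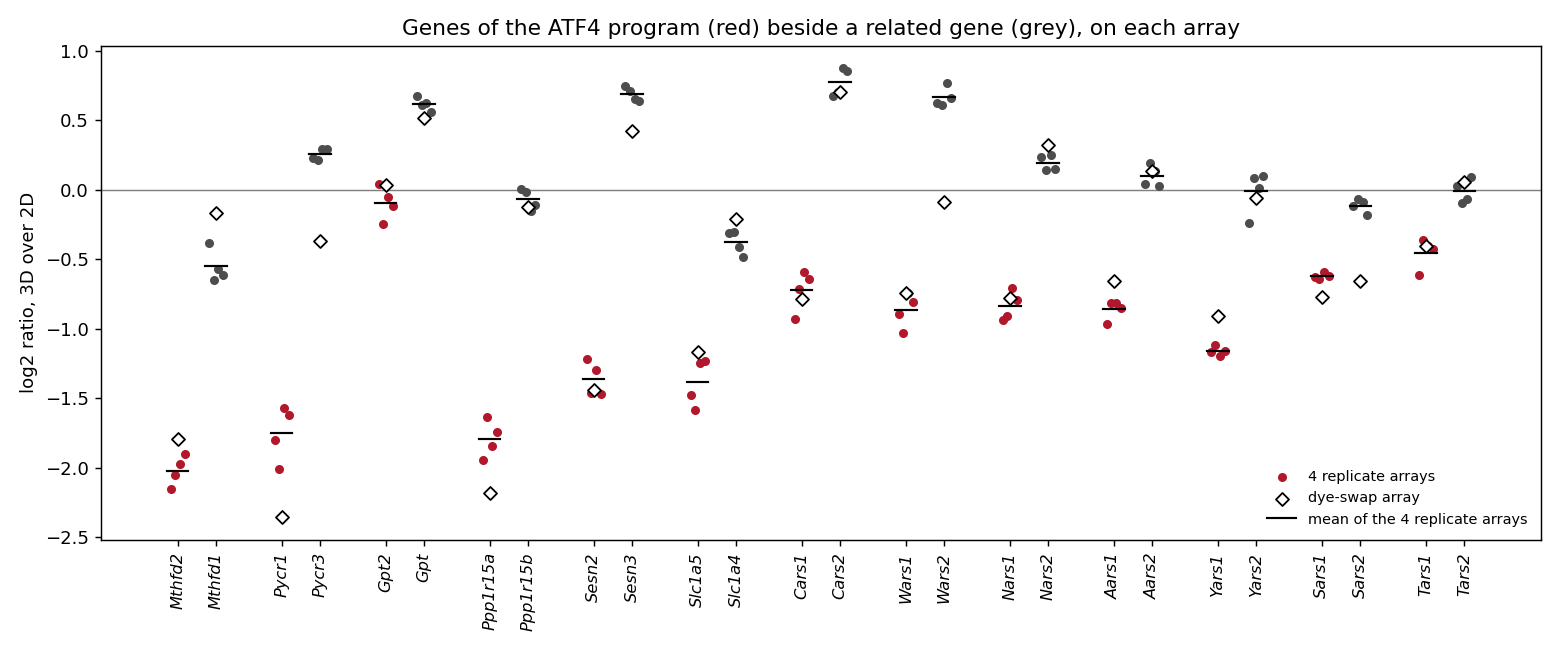
Log2 ratio of 3D over 2D on each array for genes of the ATF4 program (red) beside related genes (grey, of which Mthfd1 and Slc1a4 belong to the program too), with diamonds for the dye-swapped array and bars at the mean of the 4 replicate arrays. The program's gene lies below its relative on all 5 arrays in each of the 7 synthetase pairs shown, and Sesn2 and Sesn3 lie on opposite sides of 0. The pairs of Slc38a2 with Slc38a1 and of Eprs1 with Pars2, whose order changed between arrays, are not shown, nor is Eprs1 with Ears2.

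The C/EBP-ATF core TGATGNAA was searched on both strands of a window from 250 bases before to 50 bases after each annotated promoter start. That start can lie inside the gene's full annotated span. For Aars1, Pycr1, Mars1 and Iars1, sites before the promoter start lie within that span. The motif was chosen because ATF4 binding is how these genes are commonly linked, so the shares below are not independent of how the list was made. It was present for 15 of the 44 genes of the program that have a promoter in the table (34.1%), against 3.98% of all 33469 promoters, 3.09% of 12384 measured genes and 3.01% of measured genes that were lower in 3D cultures. By role it was found for 7 of 11 synthetases, 4 of 13 regulators, 2 of 6 other enzymes, 2 of 7 carriers and 0 of 7 serine and folate enzymes. It was found in 0 of 6 other cytosolic and 0 of 16 mitochondrial synthetases, in 0 of 18 other folate and glycine cleavage genes and in 0 of 15 genes of mTORC1 and amino acid sensing. Other lists held it for 2 of 17 genes of eIF2 control (11.8%), 1 of 10 other ATF4-linked genes, 1 of 16 genes of the ATF6 and XBP1 arm (6.25%), 1 of 18 other amino acid enzymes (5.56%) and 1 of 23 other carriers (4.35%). The 9 letters TGATGCAAT, which contain the core, were found for 5 genes (11.4%) against 0.188% of all promoters, and the core on the forward strand alone for 4 (9.09%) against 2.11%. The 8 letters TGATGCAA, added after the data were seen, were found for 12 genes (27.3%) against 0.795%.

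A site for each of 12 of the 15 genes is shown so that the letters around the core can be compared. Those of Nars1, Pck2 and Slc7a1 are left out, as is the Aars1 site nearer the start, whose core reads TGATGAAA. The sites shown are 20 bases read 5′ to 3′ on the strand of the motif, with the core in capitals. The Yars1 site is cut at the end of its window.
Pycr1: tgtgtaTGATGCAAtgtaca
Nupr1: cctgtcTGATGCAAtctggc
Fgf21: gacgaaTGATGCAAtggggg
Iars1: tggaggTGATGCAAtactga
Aars1: ctcggcTGATGCAAtgctca
Yars1: ctcagcTGATGCAAcctg
Chac1: caggagTGATGCAAcggcgg
Mars1: ccacgcTGATGCAAccggaa
Cars1: agaatcTGATGCAAccgcgg
Tars1: accagcTGATGCAAcgggac
Slc1a4: gctggaTGATGCAAcgctgg
Trib3: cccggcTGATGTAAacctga
On GRCr8 the Pycr1 site lies at chr10:106420930-106420949, the Yars1 site at chr5:146820195-146820212 and the Trib3 site at chr3:161275541-161275560. Of 16 sites in 15 genes, 12 lay on the strand opposite to the gene, 10 lay within 60 bases of the promoter start and 3 lay past it. The core with its next letter read TGATGCAAC in 7 genes and TGATGCAAT in 5, and Trib3 had TGATGTAAA. The 14 measured genes with the core had a median of -0.67, with 13 lower, and the 27 with a promoter but without it had a median of -0.65, with 21 lower and 1 higher. Mthfd2, Ddit3, Slc7a11 and Asns were among those without the letters in this window, and Fgf21, which holds all 9, was not well above background. Atf3, Mthfd1, Aldh18a1, Slc7a3, Slc1a5 and Gars1 had no entry. A match in letters is a description, and binding was not measured.

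**Figure D4:**
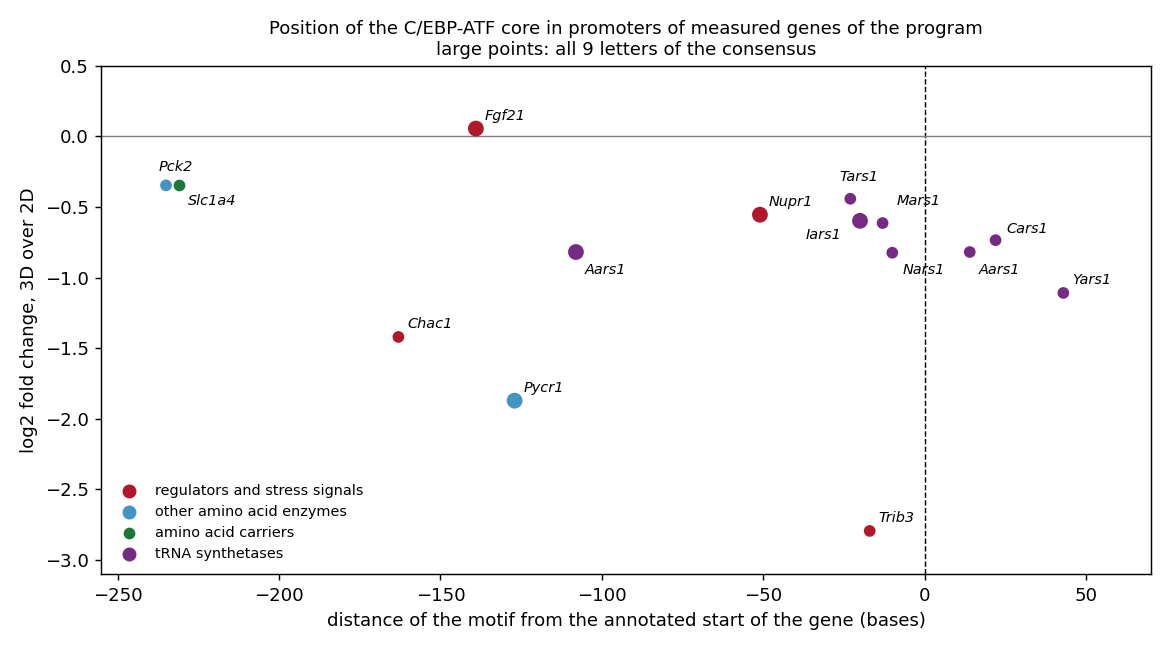
Position of the C/EBP-ATF core relative to the annotated promoter start, in bases, against the log2 fold change of 3D over 2D, for the 14 measured genes of the program that hold it. That start can lie inside the gene's full span. Large points have all 9 letters. Each of the 7 synthetases has a site within 60 bases of the start, Aars1 has another farther upstream, and Pycr1 and Trib3 have the lowest values.

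The 3D replicate arrays differed in their values for this program. Replicate 1 is a single culture on a single array, so the counts of genes below describe that array. Replicate 1 was the lowest of the 4 replicate arrays for 26 of 46 genes (56.5%), against 28.9% of all genes and 29.2% of genes lower by the test. For regulators it was the lowest in 9 of 14, and their median was -1.16 on replicate 1 against -0.83 to -0.81 on the others. By the gap to the nearest array as a share of the range over replicates, Nupr1 and Atf4 stood apart most among regulators, with Nupr1 at -1.11 against -0.50 to -0.37 and Atf4 at -1.29, below its other values given above. Proliferation markers, of which 8 of 9 measured were lower, went the other way, with a median of -1.12 on replicate 1 against -1.42 to -1.31 on the others and -1.12 on the swap. Their part in the values of the program was not tested. Without replicate 1, 37 genes of the program were lower and 1 was higher. By order of their medians, regulators were the lowest role on each of the 4 replicate arrays, whereas serine and folate enzymes were lowest with the dyes swapped. The other amino acid enzymes were nearest to 0 on all 5 arrays.

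The dye was tested as a term of its own. In a fit with a term for the dye, limma called a dye effect at a false discovery rate of 0.01 in 0 of 46 genes against 1.9% of all genes, and 11 of the 46 were under an unadjusted p of 0.05 against 27.4% of all genes. In that fit 37 were lower and 1 higher. The dye term rests on the single swapped array.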

How the data were processed

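Total RNA of 3D and 2D FRT cultures was hybridised to 5 Agilent two-colour rat arrays of 1 slide. The scanner intensity values that the authors deposited are median spot and background signals from Agilent Feature Extraction 10.7.3.1, not normalized. The deposited processed intensities were background-subtracted and dye-normalized by that software, and the log10 ratios deposited beside them were not used for results. The authors' value table holds log2 ratios that they made with limma, by normexp, loess and quantiles, and all of its columns were checked to run 3D over 2D (r of at least 0.739 in each column with the scanner log ratios turned to 3D over 2D, medians within 0.00639 of 0).

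Here, with R 4.3.3 and limma 3.58.1, median signals were corrected by normexp with an offset of 50, normalized by loess and Aquantile, and flagged spots (1.12 to 1.6% of spots per array) and control spots were left out. No array had saturated spots. Probes were named through unversioned RefSeq accessions of the table on GRCr8; 17998 of 30367 probes (59.3%) matched a symbol and the brightest probe stood for each of 15154 genes. The array fit (lmFit and eBayes, 1 coefficient, sign of the swap turned) gave adjusted p-values by Benjamini-Hochberg over all 15154 genes. A gene was called at 0.01. The number of arrays, 5, limits the precision. The swapped array held pooled RNA of the follicle cultures, so it was not a further culture, although the fit counted it as a separate array. All arrays shared the pool of monolayer RNA. Standard errors and adjusted p-values therefore rest on 4 follicle cultures and 1 monolayer pool. A gene was counted as not above background in a culture where the scanner software marked none of its probes well above background on any array.

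All 50 genes were accounted for, with every array's value for those at least 2-fold changed and for the 6 transcription factors named, and fitted values and the range over arrays of each role for the rest. From each other list, at most 2 genes that rose and 2 that fell were named, those with the largest changes that passed. The genes of GCN2 and PERK were named besides. Members, lists, motif and pairs were chosen with earlier results of these data known. The fit was run on simulated data with independent noise for each gene and array. RNA shared between arrays was not simulated, so that run does not test its effect on the p-values. Alternatives were other background corrections, centring, a dye term, the deposited table, probe rules, filters and each replicate left out.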

Additional observations from a re-analysis of the deposited data

Results flagged for a closer look

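In groups of 4 replicate arrays, 51 were examined for a sample far from the others, by its gap to the nearest array divided by the group's range, against Dixon's critical value, which chance passes in about 1 of 20 groups. Replicate 1 passed in 3. The share was 0.86 for Atf4, 0.83 for Nupr1 and 0.948 for the median of the 14 regulators and stress signals, which also holds Atf4 and Nupr1. In each, replicate 1 was the lowest array. Without it Atf4 and Nupr1 were still lower by the test.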

How the results depend on the processing

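Counts of 37 to 38 lower and 1 higher held for the program when each replicate was left out, with 3006 to 3312 genes passing in all, and 35 to 38 lower and 1 higher held under the other settings except median centring. Centring each array on its median in place of loess, without a dye term, left 7 genes passing in all, 0 lower and 0 higher in the program and 0 lower and 0 higher in the other lists. There the medians were -0.35 for regulators, -0.37 for serine and folate enzymes, -0.0842 for other amino acid enzymes, -0.21 for carriers and -0.15 for synthetases, and of the genes that had passed, the signs of Atf5 (0.10), Psat1 (0.0742), Mthfd1 (0.0592), Pck2 (0.19), Slc38a2 (0.16), Lars1 (0.0201) and Tars1 (0.0802) turned. Of those that had not passed, Cebpb (0.40), Ddit4 (0.41), Cth (0.0371), Stc2 (-0.21), Fgf21 (-0.15) and Slc7a3 (-0.19) turned. Among the named genes of the other lists, Ahcy, Atf6, Depdc5, Eif2b3, Eif2s1, Fars2, Farsb, Got1, Lamtor1, Pars2, Slc15a4 and Slc7a6 turned positive. A dye term was also added to that centring, an alternative chosen after seeing the data. With it 38 genes of the program were lower, 1 was higher and 3505 genes passed in all. Medians were -0.76 for serine and folate enzymes and -0.28 for other enzymes. In that fit the calls of Kars1, Qars1, Fars2, Eif2b3, Got1, Xbp1, Atf6, Depdc5 and Lyz2 were lost. An offset of 0 left 2222 genes passing in all and 16 lower and 16 higher in the other lists, with medians of -0.85 for serine and folate enzymes and -0.65 for carriers. Agilent's processed signals gave 19 higher in the other lists and medians of -0.85, -0.40 and -0.72 for serine and folate enzymes, other enzymes and carriers. The deposited table gave -0.72 for serine and folate enzymes and -0.40 for other enzymes, and a dye term gave -0.71 for the former. Removing dim genes gave -1.18 for regulators and -0.72 for carriers. The motif was found for 5 genes with 9 letters and for 4 on the forward strand. The causes were not tested. No paired analysis was possible because the 2D cultures were pooled. Low signal limits Stc2, Fgf21 and Slc7a3, which were not above background.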
